A study of Mus musculus with 4 samples.

Results

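The DNA replication genes are 44 mouse genes that encode the machinery of S phase: factors that license and fire origins, the replicative helicase, the sliding clamp and its loader, the DNA polymerases, and enzymes that mature the new strands, supply nucleotides or package the copied DNA. They were chosen by name, and each was found by matching its symbol to an Ensembl gene identifier in the count tables, so that all 44 were found among the 37140 genes listed for all 4 libraries. All 44 had counts in every library, and all 44 passed the low-count filter (10 or more counts in either library of a pair), as did 15910 genes of HSCs and 14844 of CD41low/CD9low HSCs.

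RNA-seq compared hematopoietic stem cells (HSCs) with and without Gfi1b, a transcriptional repressor of the blood system, in 2 sorted marrow populations. HSCs were Lin- cKit+ Sca1+ CD48- CD150+ cells, and the second population was HSCs gated as CD41low and CD9low, each with 1 WT and 1 KO library. The mice were C57Bl6, their age is not given in the sources used here, and marrow of the tibiae, femora and humeri of several mice of a genotype was pooled before lineage depletion and sorting. KO mice were Rosa-Cre Gfi1b fl/fl. WT mice were Rosa-Cre Gfi1b wt/fl according to the study's methods, whereas the series text describes Gfi1b flox/flox mice with or without ROSA-Cre. According to the methods both genotypes had received tamoxifen, which activates the Cre, and a Cre driven from the Rosa26 locus acts in all cells and not in HSCs alone. The sample titles write Gfi1, and the genotype field and the series title Gfi1b.

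With 1 library per group there was no replicate, so KO/WT ratios within a population carry no p-value, and their 95% intervals (Clopper-Pearson) cover counting error only. The libraries held 50781007 (WT) and 41690708 (KO) counts on genes for HSCs, and 12732079 and 19123185 for CD41low/CD9low HSCs, so that 3 counts corresponded to between 0.0591 and 0.236 CPM (counts per 1000000 counts on genes). All 16 HSC marker genes were detected in every library, with summed levels between 3558 and 4288 CPM. Single HSC markers differed more, with KO/WT ratios from 0.669 to 9.565 in HSCs and from 0.75 to 4.266 in CD41low/CD9low HSCs. The count of Gfi1b itself was 9256 in WT HSCs against 49910 in KO HSCs, and 611 against 9741 in the CD41low/CD9low pair. It was thus higher in both KO libraries, but a count over the whole gene does not separate the floxed exons and does not check the deletion. Exons of 16 members overlap those of another gene, and such reads cannot be divided without the strand setting of the counting, which is not given in the sources used here. Bulk libraries cannot tell fewer cycling cells from less RNA per cell.

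Replication begins in G1, when the origin recognition complex, Cdc6 and Cdt1 load the hexameric MCM helicase onto DNA. In S phase Cdc45 and the 4 GINS proteins join MCM to form the active helicase, polymerase alpha with primase starts each strand, and polymerases delta and epsilon extend the strands on the PCNA clamp. Most adult HSCs are quiescent, and genes of this machinery are transcribed chiefly in cells that enter the cycle, many of them through E2F transcription factors.

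The letters of the E2F motif occur near the start of several members. The spellings TTTCCCGC, TTTGGCGC, TTTCGCGC and TTTGCCGC were searched on both strands of RefSeq promoter windows (build GRCm38.p6, 250 bases before to 50 bases after a start). They occurred in 14 of 42 member windows (33.3%) and in 744 of 32851 windows of all genes (2.26%). The matches fell in 14 of the 37 members with a window, and TTTGCCGC occurred in no member window. The 250 upstream bases are printed 5′ to 3′ on the gene's strand, with the matches in capitals, for 4 of the 14 members with a match. Orc1 (chr4:108579204-108579453, plus strand) had the lowest KO/WT ratio of all members in CD41low/CD9low HSCs, and its match began 27 bases before the RefSeq start. Mcm6 (chr1:128359706-128359955, minus strand) was the MCM subunit with the highest level per length in WT and KO HSCs and held 3 matches. Mcm5 (chr8:75109259-75109508, plus strand) had the lowest ratio of the MCM subunits in both populations, and Pola1 (chrX:93632156-93632405, minus strand) was lower in CD41low/CD9low HSCs than in HSCs.
Orc1: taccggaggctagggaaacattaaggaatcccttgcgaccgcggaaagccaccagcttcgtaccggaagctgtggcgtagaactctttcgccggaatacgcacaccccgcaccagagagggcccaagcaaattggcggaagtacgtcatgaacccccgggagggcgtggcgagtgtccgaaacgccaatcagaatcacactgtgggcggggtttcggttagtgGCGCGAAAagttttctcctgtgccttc
Mcm6: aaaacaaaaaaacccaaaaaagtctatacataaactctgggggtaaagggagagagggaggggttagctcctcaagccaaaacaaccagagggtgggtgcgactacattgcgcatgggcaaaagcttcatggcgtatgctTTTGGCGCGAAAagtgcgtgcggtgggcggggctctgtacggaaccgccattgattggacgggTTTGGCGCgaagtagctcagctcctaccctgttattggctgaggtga
Mcm5: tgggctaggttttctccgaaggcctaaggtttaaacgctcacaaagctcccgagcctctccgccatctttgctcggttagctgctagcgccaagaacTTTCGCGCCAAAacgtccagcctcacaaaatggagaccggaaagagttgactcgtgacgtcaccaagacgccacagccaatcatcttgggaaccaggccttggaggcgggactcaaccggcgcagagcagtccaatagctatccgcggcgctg
Pola1: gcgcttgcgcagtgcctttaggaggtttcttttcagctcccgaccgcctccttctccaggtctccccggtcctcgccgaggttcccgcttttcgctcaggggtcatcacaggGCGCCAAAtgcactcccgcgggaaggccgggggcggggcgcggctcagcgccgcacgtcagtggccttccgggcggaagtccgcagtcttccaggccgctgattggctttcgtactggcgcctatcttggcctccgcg
The single match in Orc1 reads GCGCGAAA, the reverse complement of TTTCGCGC, and that in Pola1 reads GCGCCAAA, the reverse complement of TTTGGCGC. In Mcm6 the capitals of the first stretch are 2 overlapping matches on opposite strands, and in Mcm5 the capitals are likewise an overlapping pair. The RefSeq starts of Mcm5 and Mcm6 lie upstream of the gene starts of the GENCODE annotation used for lengths, and that of Orc1 lies inside the GENCODE gene. A match is a stretch of letters, and whether a factor binds there was not measured.

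DNA replication genes had lower levels in the KO library than in the WT library in both populations. The KO/WT ratio was below 1 for 41 of 44 members in HSCs, where 50% of all genes passing the filter were below 1, and for 39 of 44 in CD41low/CD9low HSCs, where 49.0% were. The median member ratio was 0.814 for HSCs and 0.818 for CD41low/CD9low HSCs, against medians of 1.0 and 1.006 over all genes. As a sum, the members took 5001 CPM in WT and 4084 CPM in KO HSCs, and 4987 and 3975 CPM in the WT and KO CD41low/CD9low libraries. Both WT sums thus lay above both KO sums.

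The differences were small for most members. With the study's cutoffs, ratios below 0.6 or above 1.5, only 1 member passed in HSCs (Gins1) and 4 in CD41low/CD9low HSCs (Orc1, Gins1, Tk1 and Cdc45), all of them down. Among all genes, 10.3% were below 0.6 and 14.1% above 1.5 in HSCs, and 12.0% and 13.5% in CD41low/CD9low HSCs, so that members past a cutoff were no more frequent than genes at large. The members' ratios ran from 0.575 to 1.036 in HSCs, and 42 of the 44 lay between 0.546 and 1.254 in CD41low/CD9low HSCs. Most replication genes were abundant. Among the 9720 genes with a mean normalized count of at least 500 in HSCs, 16.7% lay below the median log2 ratio of -0.28 of the 43 members in that range, and among 6880 such genes in CD41low/CD9low HSCs, 10.3% lay below the median of -0.29 of 35 members.

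**Figure D1:**
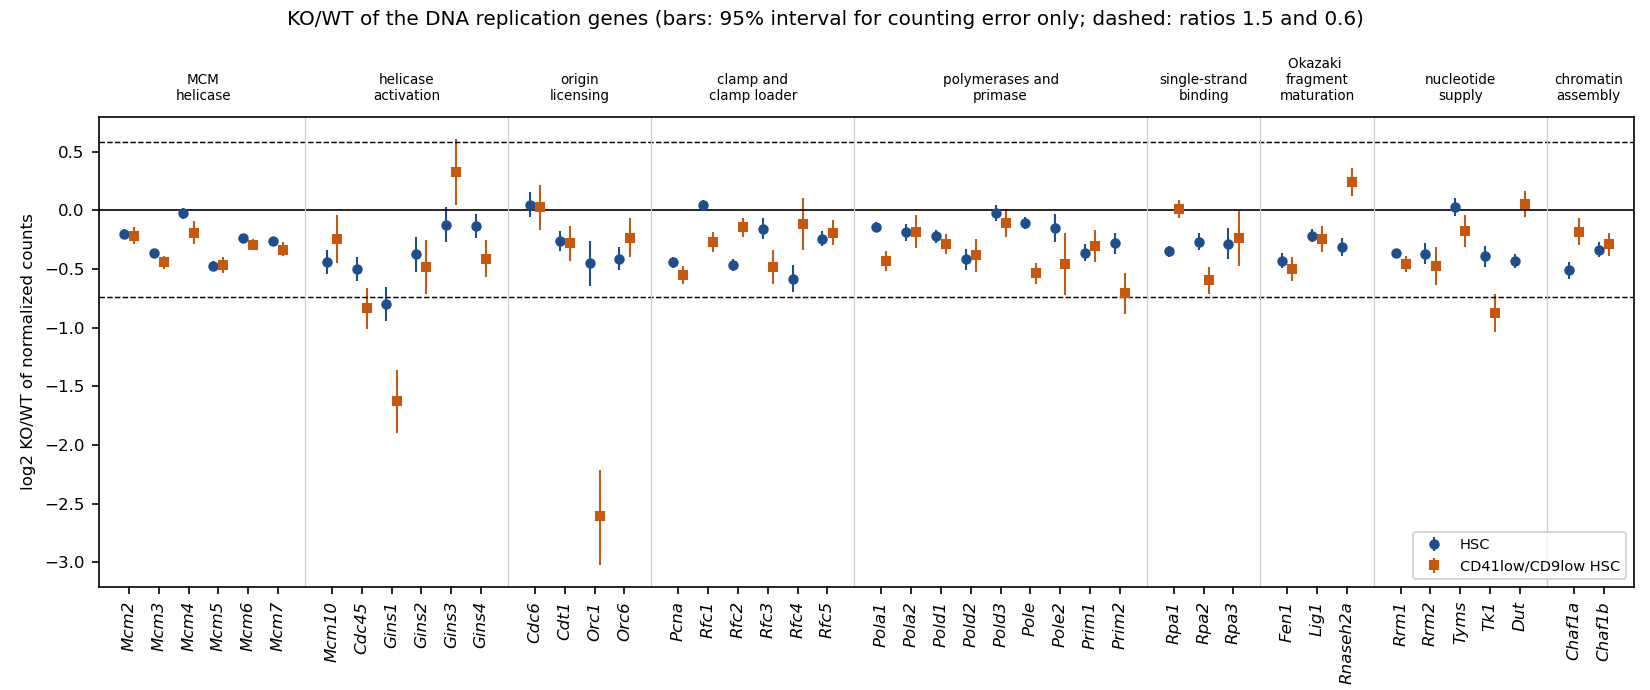
KO/WT ratios of the 44 DNA replication genes on a log2 scale, grouped by role, with circles for HSCs, squares for CD41low/CD9low HSCs, bars for the 95% interval of counting error and dashed lines at ratios of 1.5 and 0.6. Most points lie between the lower dashed line and 0, and Orc1 and Gins1 in CD41low/CD9low HSCs lie farthest below it.

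A ratio below 1 in both populations was found for 37 of 44 members, against 27.4% of the genes that passed in both. Cdc6 was above 1 in both, and 6 members were on opposite sides of 1. The libraries of the 2 populations are separate, but the methods describe marrow pooled before both were sorted, so that they may come from the same mice. Across the 44 members the log2 ratios of the 2 populations correlated with a Pearson r of 0.40 (Spearman rho 0.29), and without Gins1 and Orc1 with 0.23 (rho 0.20) over 42 genes. Members share depth and normalization within a library, so this is a description. The counting intervals of the 2 populations lay apart for 19 of 44 members, whereas this was so for 50.7% of all genes.

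Markers of other cells differed between the libraries as well, and their part in these values was not tested. The 12 neutrophil and monocyte markers summed to 688 and 735 CPM in WT and KO HSCs, and to 1500 and 561 CPM in their CD41low/CD9low counterparts, where all 11 markers that passed were below 1. Later progenitor markers summed to 315, 274, 633 and 471 CPM in the same order, with 1 of 7 below 1 in HSCs and 5 of 7 in CD41low/CD9low HSCs. The 1 below 1 in HSCs was Cd34, at 199 CPM in WT and 145 CPM in KO. The 10 erythroid markers summed to 207, 147, 127 and 72.4 CPM, with 8 of 10 below 1 in HSCs and 7 of 9 in CD41low/CD9low HSCs. Megakaryocyte markers summed to 1727, 2489, 546 and 660 CPM, with 2 of 12 below 1 in HSCs and 5 of 11 in CD41low/CD9low HSCs. This list is not independent of the gate, since it holds the gating markers Itga2b (CD41) and Cd9. Itgb3 held 202, 663, 51.4 and 141 CPM of these sums, and Itga2b 547, 691, 136 and 205 CPM. The study describes both integrin genes as up-regulated in HSCs that lack Gfi1b. Lymphoid markers summed to 35, 52.6, 17.5 and 33.1 CPM, with 8 and 7 of 10 at 0 in the WT and KO CD41low/CD9low libraries. Nkg7 alone held 32.0, 51.2, 10.1 and 30.8 CPM of these lymphoid sums. Of the 6 lymphoid markers that passed in HSCs, 4 were below 0.6, all on few counts. These were Cd79a (34 in WT and 1 in KO), Ebf1 (20 and 3), Rag1 (16 and 1) and Cd4 (48 and 21). Of 20 immediate-early genes, all were below 1 in HSCs and 19 were below 0.6, and of the 16 that passed in the CD41low/CD9low pair, 10 were below 1 and 4 below 0.6. The member sum had a KO/WT ratio of 0.817 in HSCs and of 0.797 in CD41low/CD9low HSCs.

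The MCM subunits were all below 1 in both populations. Mcm6 stood at 543 and 455 CPM in WT and KO HSCs and at 518 and 423 CPM in their CD41low/CD9low counterparts. Mcm3 stood at 332 and 255 CPM in HSCs and 372 and 273 CPM in CD41low/CD9low HSCs. In both genes the KO library was the lower of each pair, and the WT libraries of both populations lay above both KO libraries. Mcm5, another ring subunit, was at 257 (WT) and 183 (KO) CPM in HSCs and 266 and 192 CPM in CD41low/CD9low HSCs, with ratios of 0.720 (0.700 to 0.741) and 0.724 (0.691 to 0.759). Mcm2 (0.869 and 0.862) and Mcm7 (0.833 and 0.794) were nearer to 1. Mcm4 was the exception in HSCs, where 185 and 180 CPM gave a ratio of 0.983 whose interval of 0.953 to 1.013 includes 1. In CD41low/CD9low HSCs its ratio was 0.876 (0.819 to 0.938).

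Levels per kb of mRNA differed within the ring although the helicase holds its 6 subunits in equal number. In WT HSCs they ran from 51.6 CPM per kb for Mcm4 over 66.7 for Mcm2, 74.6 for Mcm7, 76.0 for Mcm5 and 109 for Mcm3 to 125 for Mcm6. Without a replicate the order of neighbours such as Mcm7 and Mcm5 cannot be set against a spread. Over all members the levels per kb spanned 34.7-fold in WT HSCs, from 3.95 (Orc1) over a median of 32.2 to 137 (Pcna). In KO HSCs they ran from 2.86 (Orc1) to 104 (Mcm6), in WT CD41low/CD9low HSCs from 4.99 (Gins3) to 146 (Pcna), and in the KO library from 1.13 (Orc1) to 99.6 (Pcna). Pcna, Mcm3 and Mcm6 were the 3 highest members in each library, whereas Mcm4 lay near the median in both CD41low/CD9low libraries.

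**Figure D2:**
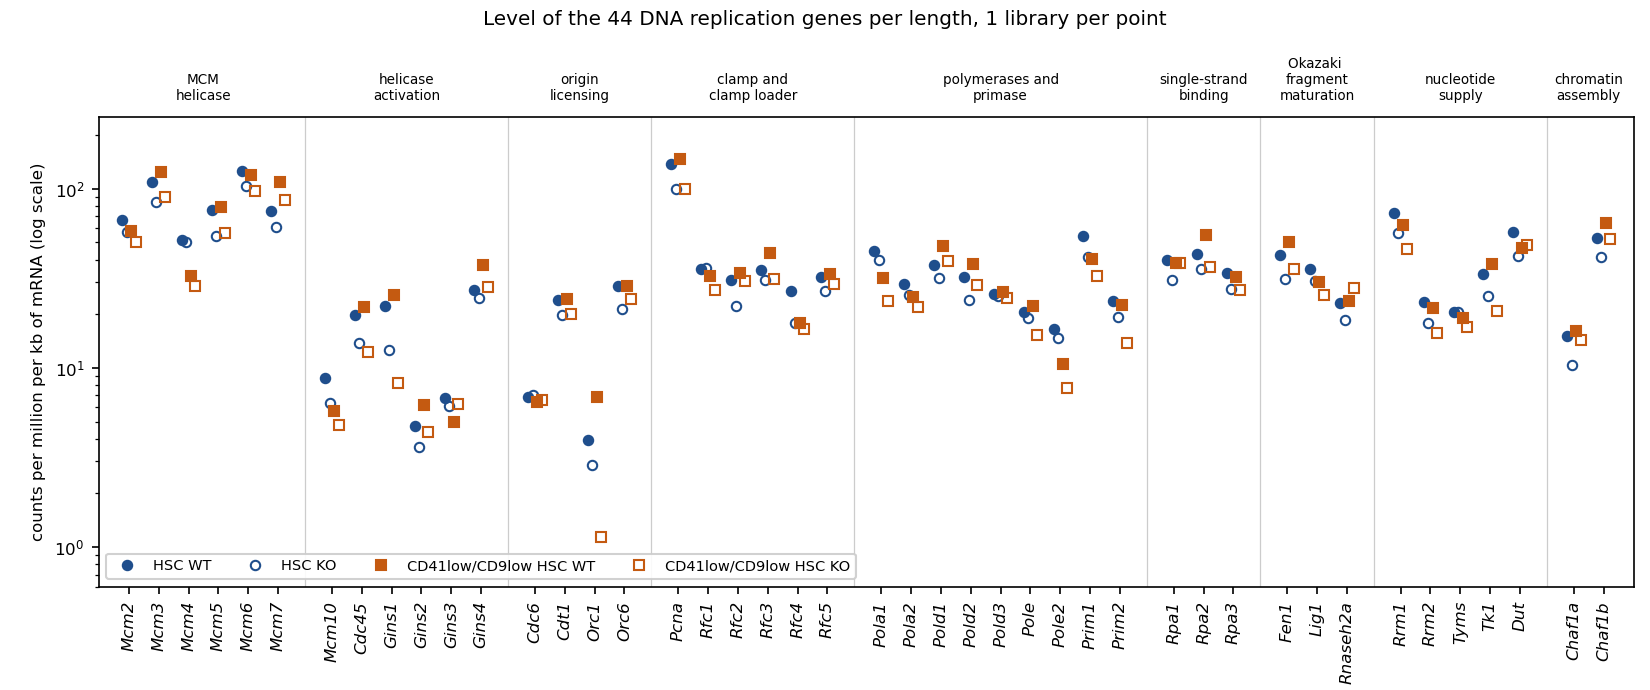
Level of each DNA replication gene in CPM per kb of its longest protein-coding mRNA on a log axis, with 1 point per library (filled for WT, open for KO, circles for HSCs and squares for CD41low/CD9low HSCs). Pcna, Mcm3 and Mcm6 are the highest in each library, and the open square of Orc1 at 1.13 is the lowest point.

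Among the factors that switch the helicase on, Gins1 and Cdc45 had the lowest ratios in both populations. Gins1 (ENSMUSG00000027454, chr2:150905400-150931280, GRCm38), a subunit of the 4-protein GINS complex, was at 24.2 and 13.7 CPM in WT and KO HSCs, and at 27.5 and 8.89 CPM in their CD41low/CD9low counterparts. The WT libraries were close to each other and both KO libraries were lower, at ratios of 0.575 (0.520 to 0.636) and 0.324 (0.268 to 0.390). Cdc45 (ENSMUSG00000000028, chr16:18780447-18811987), which holds GINS and MCM together, was at 42.3 and 29.5 CPM in HSCs and 47.0 and 26.3 CPM in CD41low/CD9low HSCs. Its ratios were 0.706 (0.658 to 0.758) and 0.561 (0.497 to 0.632). Cdc45 overlaps Ufd1 on the opposite strand over 209 exonic bases, where reads of the pair cannot be told apart.

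The other GINS genes did not share the values of Gins1. Gins2 had ratios of 0.772 and 0.715, and Gins4 of 0.914 and 0.753. Gins3 was at 17.1 and 15.5 CPM in WT and KO HSCs and at 12.6 and 15.7 CPM in their CD41low/CD9low counterparts, with ratios of 0.918 (0.828 to 1.018) and 1.254 (1.032 to 1.529). It was thus the member highest above 1 in CD41low/CD9low HSCs, on 160 WT and 301 KO counts. Mcm10, which stabilises the active helicase, had ratios of 0.737 and 0.844.

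Origin licensing held the member with the lowest ratio in CD41low/CD9low HSCs, Orc1, and the gene above 1 in both populations, Cdc6. Orc1 (ENSMUSG00000028587, chr4:108579423-108614833), the largest subunit of the origin recognition complex and an ATPase, had 605 and 359 counts in WT and KO HSCs and 264 and 65 counts in their CD41low/CD9low counterparts, which corresponds to 11.9, 8.61, 20.7 and 3.40 CPM. The WT CD41low/CD9low library was the highest and the KO library of the same population the lowest, and the ratio was 0.732 (0.641 to 0.836) in HSCs but 0.164 (0.123 to 0.216) in the CD41low/CD9low pair. Orc1 overlaps Gm12743 on the other strand over 376 exonic bases, whose own counts were 76 and 151 for HSCs and 64 and 11 for CD41low/CD9low HSCs. Reads shared by the pair cannot be assigned, and in CD41low/CD9low HSCs both were lower in the KO library. Orc6 had ratios of 0.753 and 0.850. Cdt1, which brings MCM to the origin, had 0.836 and 0.824. Cdc6, the ATPase that works with Cdt1, was at 31.6 and 32.3 CPM in HSCs and 29.8 and 30.3 CPM in CD41low/CD9low HSCs. Its 4 levels lay close together, and both ratios, 1.036 (0.963 to 1.114) and 1.018 (0.893 to 1.161), had intervals that include 1.

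The sliding clamp was lower in both KO libraries, and the clamp loader varied. Pcna (ENSMUSG00000027342, chr2:132249162-132253314) was at 209 and 152 CPM in WT and KO HSCs and at 222 and 151 CPM in CD41low/CD9low HSCs. Both WT levels lay above both KO levels, with ratios of 0.737 (0.714 to 0.760) and 0.682 (0.648 to 0.719). The near-identical pseudogene Pcna-ps2 had 1090, 812, 33 and 86 counts in the 4 libraries in the same order, beside 10595, 6323, 2825 and 2892 for Pcna, so the division of reads between them makes the level of Pcna uncertain. Rfc1, the large subunit of the loader, was at 168 and 172 CPM in HSCs and 155 and 129 CPM in CD41low/CD9low HSCs. Its ratio was 1.034 (1.002 to 1.067) in the first population and 0.831 (0.783 to 0.882) in the second, on opposite sides of 1. The small subunits were all below 1 in both, from Rfc4 at 0.669 to Rfc3 at 0.897 in HSCs and from Rfc3 at 0.715 to Rfc4 at 0.924 in CD41low/CD9low HSCs. Rfc4 shares 194 exonic bases with Eif4a2 on the other strand, a gene with 43802 counts in WT HSCs, and the part of that overlap in the Rfc4 count was not tested.

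All 9 polymerase and primase genes among the members were below 1 in both populations. In HSCs they ranged from 0.750 (Pold2) to 0.986 (Pold3), with a median of 0.880, and in CD41low/CD9low HSCs from 0.613 (Prim2) to 0.929 (Pold3), with a median of 0.767. Pole, the catalytic subunit of polymerase epsilon on the leading strand, was at 147 and 135 CPM in HSCs (ratio 0.931) and at 159 and 110 CPM in CD41low/CD9low HSCs (ratio 0.690). Prim2, the large primase subunit, was at 46.5 and 37.8 CPM and at 44.5 and 27.2 CPM, and its second ratio of 0.613 (0.543 to 0.691) was the member value nearest above the cutoff of 0.6. Of the polymerase delta subunits, Pold1 had ratios of 0.859 and 0.821 and Pold2 of 0.750 and 0.767.

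Genes for strand protection and maturation followed the same direction with 2 exceptions in CD41low/CD9low HSCs. Among the subunits of RPA, which coats single strands, Rpa2 had ratios of 0.831 and 0.662 and Rpa3 of 0.821 and 0.848. Rpa1 had 0.785 in HSCs but was level in CD41low/CD9low HSCs, at 194 and 195 CPM and a ratio of 1.008 (0.958 to 1.061). Fen1, the flap nuclease of Okazaki fragments, had 0.743 and 0.708, and Lig1, the ligase that seals them, 0.862 and 0.845. Rnaseh2a, a nuclease that removes ribonucleotides from DNA, was at 68.8 and 54.8 CPM in HSCs and at 70.8 and 83.5 CPM in CD41low/CD9low HSCs. Its ratios of 0.807 (0.765 to 0.851) and 1.181 (1.088 to 1.283) lay on opposite sides of 1, each beyond counting error. It overlaps Prdx2 on the other strand over 177 exonic bases.

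Of the genes for nucleotide supply, Tk1 had the lowest ratio in CD41low/CD9low HSCs and Dut in HSCs. Tk1 (ENSMUSG00000025574, chr11:117815526-117826092), the thymidine kinase of cycling cells, was at 48.2 and 36.3 CPM in WT and KO HSCs and at 54.9 and 30.0 CPM in their CD41low/CD9low counterparts. Both KO levels lay under both WT levels, at ratios of 0.762 (0.715 to 0.813) and 0.546 (0.488 to 0.611). The subunits of ribonucleotide reductase were alike, with 0.776 and 0.730 for Rrm1 and 0.774 and 0.721 for Rrm2. Tyms, which makes thymidylate, was level in HSCs at 64.4 and 64.9 CPM (ratio 1.020, 0.969 to 1.074) and had a ratio of 0.887 in CD41low/CD9low HSCs. Dut, which removes dUTP, had 0.741 in HSCs but 1.040 (0.965 to 1.120) in CD41low/CD9low HSCs. The CAF-1 genes Chaf1a and Chaf1b, whose products place histones on copied DNA, had 0.703 and 0.794 in HSCs and 0.882 and 0.819 in CD41low/CD9low HSCs.

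A genotype difference shared by both populations was tested across 16262 genes on all 4 libraries, with edgeR's quasi-likelihood test and population as covariate. This test takes the populations as replicates of each other and leaves 1 residual degree of freedom. The prior degrees of freedom were infinite, so that the spread came from the trend over all genes and a gene's own disagreement between the populations carried no weight. Orc1, for example, was called although its log2 ratio differed by -2.16 between CD41low/CD9low HSCs and HSCs. Of all genes, 1.62% were called higher and 1.19% lower in KO at an adjusted p (Benjamini-Hochberg) under 0.05. Of the 44 members, 5 were lower and 0 higher, and at an unadjusted p under 0.05 the counts over all genes were 953 higher and 801 lower. Gins1 fell by 1.21 (SE 0.27) on the log2 scale with an edgeR adjusted p of 0.000887, and Orc1 fell by 1.48 (SE 0.35) with 0.00201. Tk1 (-0.63, SE 0.19, edgeR adjusted p of 0.0360), Pcna (-0.50, SE 0.15, 0.0374) and Cdc45 (-0.67, SE 0.20, 0.0418) fell as well. These genes have different roles, namely helicase activation, licensing, the clamp and thymidine salvage. The next member was Mcm5, at -0.48 and an edgeR adjusted p of 0.0526. The coefficient was below 0 for 42 of 44 members, with a median of -0.32. None of the 5 calls held with DESeq2, where the lowest adjusted p was 0.108 for Gins1, nor with a filter of at least 50 counts. At an unadjusted DESeq2 p under 0.05, 12 of 44 members were lower, against 416 lower and 561 higher of the 16262 genes fitted.

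**Figure D3:**
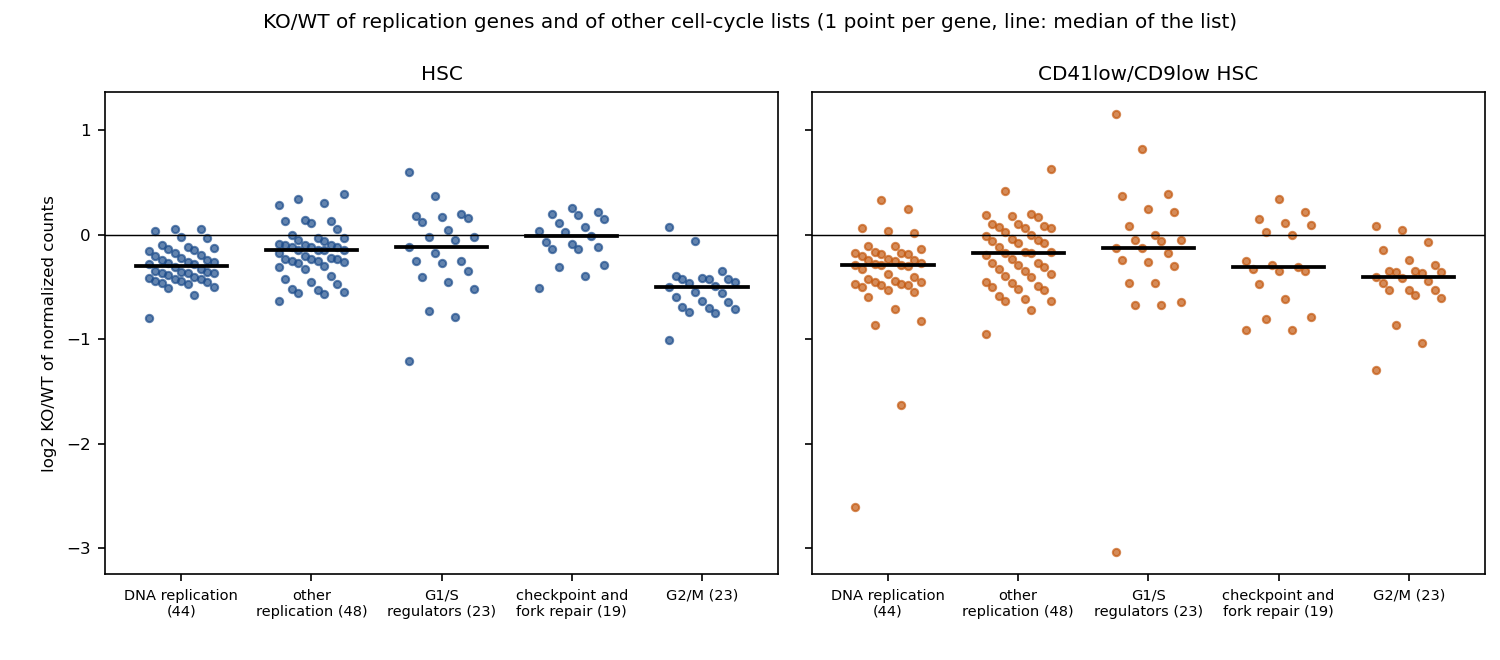
Log2 KO/WT ratio of each gene in the DNA replication list and in 4 further cell-cycle lists, with 1 point per gene, HSCs left and CD41low/CD9low HSCs right, and a line at the median of each list. The replication genes center at -0.30 and -0.29, and the G2/M genes at -0.50 and -0.41.

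The rest of the replication and cell-cycle program was read from 4 further lists. Of 48 other replication genes, 39 were below 1 in HSCs and 34 in the CD41low/CD9low pair, with median log2 ratios of -0.15 and -0.18. In the 4-library test 2 of them were lower and 0 higher. These were Uhrf1, which couples DNA methylation to replication (ratios 0.677 and 0.609, edgeR adjusted p of 0.00204), and Clspn, a fork protein that activates Chk1 (0.731 and 0.643, edgeR adjusted p of 0.0467). Gmnn, the inhibitor of Cdt1, had ratios of 0.698 and 0.641 and an edgeR adjusted p of 0.181. The 23 G1/S regulators were spread more widely around medians of -0.12 and -0.13, with 15 and 16 below 1 and 1 call, Ccna2 (0.699 and 0.631, edgeR adjusted p of 0.0137). Ccne1 had 0.578 and 0.725, and Cdkn1c, a Cdk inhibitor of quiescent HSCs, 0.431 and 0.967, neither of them called. Of 19 checkpoint and fork repair genes, 10 and 12 were below 1, with medians of -0.01 and -0.31 and no call by edgeR (0 higher and 0 lower). Fancd2 had ratios of 0.759 and 0.577 and Fanci of 0.951 and 0.533, and the lower ratio of each was that of the CD41low/CD9low pair. The 23 G2/M genes had lower medians than the replication genes in both pairs, with 22 and 21 below 1, medians of -0.50 and -0.41 and 7 lower and 0 higher in the 4-library test. With DESeq2 all 7 lost the call, as did Clspn and Ccna2, and Uhrf1 kept it. Examples of the 7 are Bub1 (0.783 and 0.405, edgeR adjusted p of 0.00762), Aurka (0.711 and 0.485, 0.0477) and Birc5 (0.678 and 0.546, 0.0438).

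The levels of the replication genes were compared between the populations in the same 4 libraries. This difference cannot be told apart from depth or from the annotation, since the tables of the populations differ in total counts and in the genes they list. Of all genes, 9.11% were called higher and 13.7% lower in CD41low/CD9low HSCs by edgeR with genotype as covariate. Of the 44 members, 1 was higher and 5 were lower, so that calls were no more frequent among members than among genes at large. Their coefficients were below 0 for 28 of 44, with a median of -0.10, near the median of -0.066 over all genes. The lower members were Mcm4 (-0.81, SE 0.16, edgeR adjusted p of 4.6e-06), Pola1 (-0.70, SE 0.15, 6.98e-05), Pole2 (-0.85, SE 0.25, 0.00549), Prim1 (-0.45, SE 0.17, 0.0346) and Mcm10 (-0.57, SE 0.22, 0.0437). Pola1 and Prim1 encode catalytic subunits of the polymerase alpha and primase complex, and Pole2 an accessory subunit of polymerase epsilon. Mcm7 was higher (0.46, SE 0.15, edgeR adjusted p of 0.0129). With DESeq2, Pole2, Prim1 and Mcm10 lost the call, at adjusted p of 0.0618, 0.131 and 0.166, and Mcm4, Pola1 and Mcm7 kept it.

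The 6 called members kept their direction in both genotypes. The calls came from these same 4 libraries, so this is a description and no added support. Mcm4 was at 0.60-fold of the HSC level in WT and 0.542-fold in KO, Pola1 at 0.677 and 0.561, and Pole2 at 0.610 and 0.501. Prim1 was at 0.711 and 0.748 and Mcm10 at 0.625 and 0.725. Mcm7 was at 1.397-fold (1.348 to 1.448) in WT and 1.351-fold (1.303 to 1.400) in KO, so that Mcm4 and Mcm7 of the same ring lay on opposite sides of 1. Orc1 was at 1.664 in WT and 0.378 in KO, so that it was higher in the CD41low/CD9low library in WT and lower in KO. Gins1 was at 1.088 (0.963 to 1.226) in WT, an interval that includes 1, and at 0.620 (0.520 to 0.737) in KO.

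**Figure D4:**
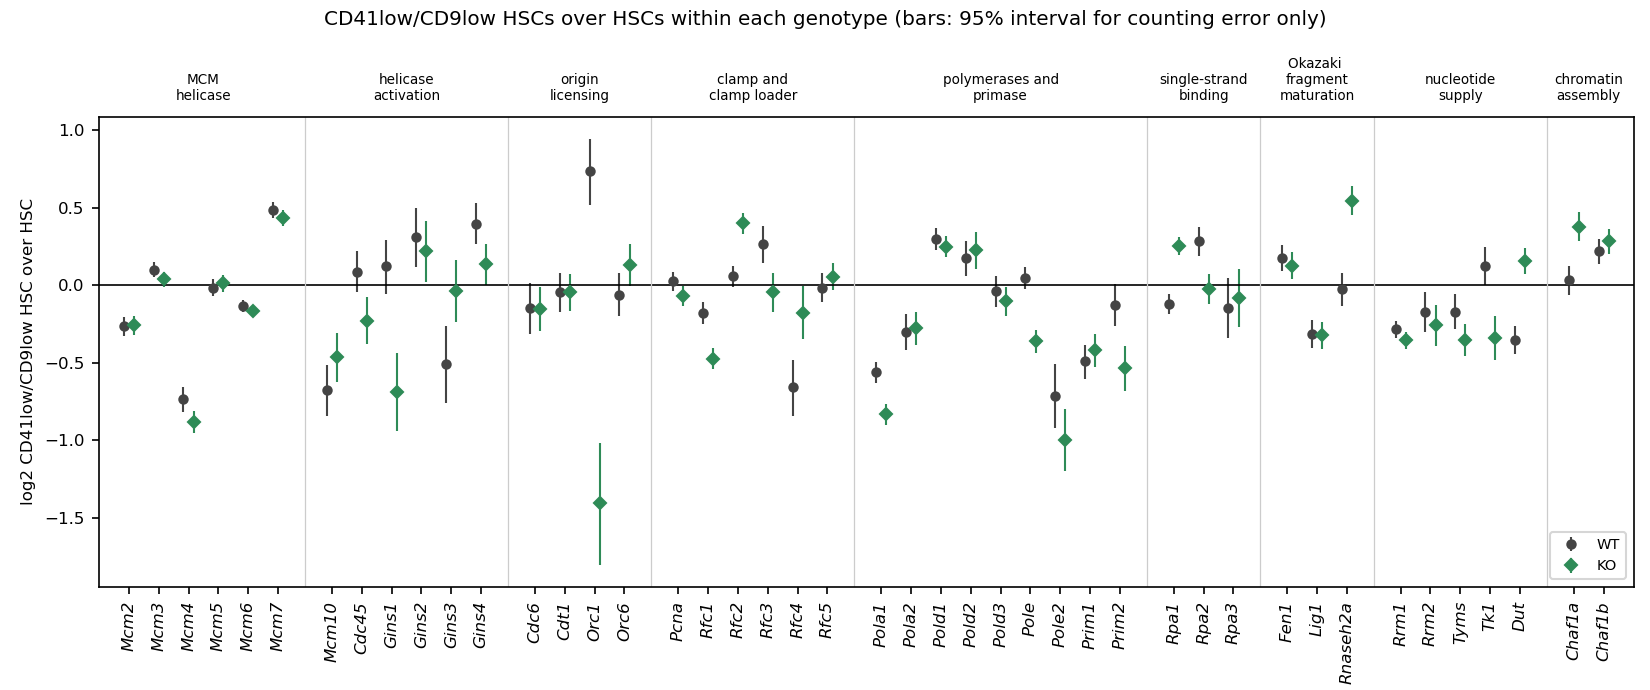
Log2 ratio of CD41low/CD9low HSCs over HSCs for each DNA replication gene, with circles for the WT libraries, diamonds for the KO libraries and bars for the 95% interval of counting error. Mcm4, Pola1 and Pole2 lie below 0 and Mcm7 above 0 in both genotypes, and Orc1 lies above 0 in WT and below it in KO.

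The ratios were then set beside the E2F letters, which the choice of members did not use. The 14 members with a match had a median log2 KO/WT of -0.22 in HSCs and -0.31 in the CD41low/CD9low pair. The 23 members with a window but no match, among them Cdc45, Pcna and Tk1, had -0.37 and -0.25. The 7 without a window, among them Gins1, had -0.28 and -0.48. The order of the groups thus differed between the populations. Of the members called lower for genotype by edgeR, Orc1 alone had a match. The group with a match held Orc1 (log2 -0.45 and -2.61) as well as Cdc6, whose match lies 138 bases before the start and whose levels did not differ between genotypes beyond counting error, and Gins3 (-0.12 and 0.33). Shorter letters, TTCCCGC or TTGGCGC on either strand, occurred in the windows of 21 of 37 members, or 52.4% of member windows and 6.81% of all windows. CCAAT, another element of promoters of cell-cycle genes, occurred in 57.1% of member windows and 37.4% of all windows.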

How the data were processed

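RNA of 4 sorted cell pools was sequenced with a TruSeq Stranded mRNA kit, 1 library per genotype and population. The authors aligned reads to mm10 with TopHat2 (2.0.10), processed the alignments with SAMtools, used HTSeq to count reads per Ensembl gene, and deposited these raw counts. The HTSeq version, strand setting and annotation release are not given in the sources used here, and the tables of the populations list different sets of genes (38293 and 41214, of which 37140 are shared). Lines for reads on no feature were left out of totals and tests; they held 80.0, 105.0, 62.0 and 60.1 reads per 100 counts on genes in WT and KO HSCs and WT and KO CD41low/CD9low HSCs.

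Groups followed the genotype and cell type labels. Members, lists and tests were chosen with earlier results of these data known. Size factors were medians of ratios on each pair (KO/WT 0.810 and 1.5), after the study's use of DESeq, and ratios carried Clopper-Pearson 95% intervals. A gene was kept if either library of a pair held 10 or more counts. The 4-library test used edgeR (4.0.16) with TMM. On simulated counts of 14751 genes it recovered 88.0% of 200 genes changed 3-fold, with 5 false calls. The simulation held no population difference and the same genotype change in both populations, so it does not cover genes such as Orc1. Alternatives were other size factors and filters, a pseudocount of 1, an exon length correction (running median of 500 genes), other cutoffs and DESeq2 (1.42.0). Symbols, lengths and overlaps came from GENCODE M21 on GRCm38, and promoter windows from RefSeq (GRCm38.p6). All members were accounted for, and full values went to those past a cutoff, with an edgeR adjusted p under 0.05, or highest or lowest per length. Values of members on opposite sides of 1, near a cutoff or level between genotypes were added after they were seen. So were those of Cd34, Nkg7, Itga2b, Itgb3, Cd79a, Ebf1, Rag1 and Cd4 from the marker lists. From each further list the 3 genes with the largest absolute mean log2 ratio over both populations, among those with at least 50 counts in 1 library of each pair, were chosen, and those of the 4 cell-cycle lists were named, except 1 that is not reported here. R was 4.3.3 and Python 3.11.15.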

Additional observations from a re-analysis of the deposited data

Results flagged for a closer look

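Rfc1 and Rnaseh2a stood out because their KO/WT ratios lay on opposite sides of 1 in the 2 populations, each beyond counting error. For Rfc1 in HSCs this was narrow, with an interval of 1.002 to 1.067. Its log2 ratio there was 0.05, and -0.0 with the exon length correction, so its opposite direction depends on the processing. The log2 ratio of CD41low/CD9low HSCs minus that of HSCs was -0.32 for Rfc1 and 0.55 for Rnaseh2a. With 1 library per group this difference between populations was not tested.

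Reads that fell on no annotated gene, which no comparison uses, amounted to 80.0 and 105.0 per 100 counts on genes in HSCs (WT and KO), and to 62.0 and 60.1 in CD41low/CD9low HSCs (WT and KO). Their share was highest in the KO HSC library, and its part in the member values was not tested.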

How the results depend on the processing

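The number of members with a KO/WT ratio below 1 was 41 in HSCs under each other size factor, filter, pseudocount and length correction tried, and 39 or 40 in CD41low/CD9low HSCs. Without the 16 members that overlap another gene, an alternative added after seeing the data, it was 25 of 28 in both. The count past the cutoff of 0.6 in HSCs was 0 with the exon length correction and 0 at cutoffs of 2 and 1/2. In CD41low/CD9low HSCs it was 2 at cutoffs of 2 and 1/2, 2 among genes with a mean normalized count of at least 500, another alternative added after seeing the data, and 1 without overlapping members. Of the single-member log2 ratios under the alternatives, 678 moved by less than their counting interval and 26 by more, none of which changed sign with a ratio past a cutoff. All 26 came from the exon length correction, under which Gins4 moved from -0.13 to 0.05 and Gins1 from -0.80 to -0.60 in HSCs.

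The 5 members lower for genotype became 2 with RLE size factors (Gins1 and Orc1), 3 without a filter (Gins1, Orc1 and Pcna), and 0 with DESeq2 or a filter of at least 50 counts, where all 5 lost the call. Over all genes the calls were 263 higher and 194 lower, against 145 and 95 with RLE, 80 and 48 with at least 50 counts, and 70 and 30 with DESeq2. The 5 members lower for population became 3 with total-count scaling, 3 with at least 50 counts (Mcm4, Pola1 and Pole2 in both) and 2 with DESeq2 (Mcm4 and Pola1). Over all genes 1481 were higher and 2235 lower for population, against 1861 and 1831 with total-count scaling. Genes past the cutoffs in HSCs were 2248 up and 1639 down, against 1431 and 792 with at least 50 counts and 4354 and 2649 without a filter. In CD41low/CD9low HSCs they were 1998 and 1788, against 982 and 702 and 3121 and 2547. The cause of these shifts was not tested.

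No paired analysis was possible because each group held 1 library, other than the 4-library test, which compares WT and KO within a population. Leaving out a library leaves no residual degree of freedom and was not run. The shallower CD41low/CD9low libraries limit low members such as Orc1 and Gins3.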
